A study of Mus musculus with 17 samples.

Results

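The ion channels and nutrient transporters of the retinal pigment epithelium (RPE) were taken as a set of 9 genes. They were chosen by name for their known place in the transport machinery of this epithelium. The rule used no value measured here, but earlier results of these data were known when it was set. The set comprises *Kcnj13*, *Slc12a2*, *Atp1b1*, *Best1*, *Clcn2*, *Aqp1*, *Slc16a1*, *Slc16a8* and *Slc2a1*. All 9 were among the 22253 genes of the deposited count table. They were followed in 17 RNA-seq libraries of pooled RPE cells, which had been collected singly with a micromanipulator after enzymatic dissociation of the eyecup. The cells came from 2-month-old Serpine3GFP/+ mice on a C57BL6/J background, in which GFP with a transcription terminator sits just after the start codon of 1 *Serpine3* allele, so GFP marks cells that use the *Serpine3* promoter and every group, the controls included, carries 1 disrupted allele. Eyecups were parted at the middle line into periphery and center. GFP+ RPE cells of the periphery gave 6 libraries, GFP- RPE cells of the same peripheral tissue (labelled ctrl periphery, here the peripheral controls) gave 5, and GFP- RPE cells of the central tissue (labelled ctrl center, here the central controls) gave 6. The labels give 10 to 15 cells per pool. The methods of the study give a lower range, so the number of cells is uncertain. The sex of the mouse behind a library was not given. Of the 7 mice, 5 gave a library of each group. Mouse 1 carries 2 animal numbers and may be a pool. With bulk pools, fewer cells of a type and less RNA per cell cannot be told apart.

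The RPE is a polarised layer between the photoreceptors and the choroid that moves ions, water and nutrients in both directions. On its apical side, facing the photoreceptors, the sodium pump, the sodium-potassium-chloride cotransporter and an inwardly rectifying potassium channel set the ionic gradients. On the basolateral side chloride leaves through channels, and water follows. Glucose passes from the blood to the retina through facilitative transporters, and lactate made by photoreceptors passes back through a pair of monocarboxylate transporters placed on opposite membranes.

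The sequences just upstream of 4 of these genes are shown because they belong to the members at either end of the range of levels (*Kcnj13* and *Best1*) and to the pair of monocarboxylate transporters (*Slc16a1* and *Slc16a8*). Each is the 250 bases before the RefSeq start of the gene in GRCm38.p6, written 5′ to 3′ on the strand of the gene. Capitals mark matches to 3 motifs searched on both strands, the E-box forms CACGTG and CATGTG, to which MITF-type factors bind, and TAATCC, to which OTX2-type factors bind. None of the 3 overlaps another in these windows.
Kcnj13, chr1:87394730-87394979, minus strand: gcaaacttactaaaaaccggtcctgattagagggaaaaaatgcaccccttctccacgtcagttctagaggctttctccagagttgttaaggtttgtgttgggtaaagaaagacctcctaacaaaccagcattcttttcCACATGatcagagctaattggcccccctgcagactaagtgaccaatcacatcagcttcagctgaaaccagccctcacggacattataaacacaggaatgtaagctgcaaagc
Best1, chr19:10001634-10001883, minus strand: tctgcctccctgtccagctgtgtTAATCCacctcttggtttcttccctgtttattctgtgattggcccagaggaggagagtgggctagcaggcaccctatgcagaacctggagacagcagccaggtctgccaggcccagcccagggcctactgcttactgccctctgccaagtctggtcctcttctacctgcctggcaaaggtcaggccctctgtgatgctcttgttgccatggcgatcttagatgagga
Slc16a1, chr3:104638414-104638663, plus strand: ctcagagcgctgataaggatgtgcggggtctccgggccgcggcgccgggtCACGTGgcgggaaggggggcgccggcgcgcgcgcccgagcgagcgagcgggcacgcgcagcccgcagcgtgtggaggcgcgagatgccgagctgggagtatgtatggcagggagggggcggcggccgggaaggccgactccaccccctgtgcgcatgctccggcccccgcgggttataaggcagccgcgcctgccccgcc
Slc16a8, chr15:79254749-79254998, minus strand: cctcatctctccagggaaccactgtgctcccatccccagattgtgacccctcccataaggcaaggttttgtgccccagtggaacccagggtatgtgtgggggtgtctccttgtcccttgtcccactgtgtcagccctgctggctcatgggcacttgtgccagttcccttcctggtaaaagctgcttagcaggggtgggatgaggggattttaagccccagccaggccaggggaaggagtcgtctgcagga

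The *Kcnj13* window held 1 match to CATGTG, read on the other strand, 112 bases before the start. The *Best1* window held 1 TAATCC, 227 bases before the start, and the *Slc16a1* window held 1 CACGTG, 200 bases before the start. The *Slc16a8* window held none of the 3, nor did those of *Clcn2*, *Atp1b1*, *Aqp1* and *Slc2a1*. Of 27025 RefSeq promoter windows of the same length, 6.05% held CACGTG, 12.2% held CATGTG and 6.38% held TAATCC. Promoter entries matched 8 of the 9 members, and *Slc12a2* was not among them. These matches are descriptions of letters, and binding was not measured here.

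Total counts ranged from 9896118 to 22467079 per library, so that 3 counts, the most that a count of 0 allows, stood for 0.116 to 0.554 CPM, the counts of a gene scaled to a common library size. CPM are given with TMM scaling over the 17 libraries, and such floors cover counting error only. *Serpine3* was at 6.20 to 22.4 CPM in GFP+ libraries, at 0 counts in all central libraries and in 4 of 5 peripheral control libraries, and at 5 counts in that of mouse 1. The 12 RPE markers, among them *Rpe65*, *Rlbp1* and *Otx2*, summed to 49220 to 99805 CPM, and none was at the floor across a group. The 16 photoreceptor markers summed to 89.4 to 304 CPM and the 12 endothelial markers to 0.333 to 26.99 CPM, and *Cdh5*, *Tek* and *Tie1* were at or under the floor in every group. The ciliary and iris epithelium markers, of which 11 were in the table, summed to 1012 to 1386 CPM in GFP+ RPE, 670 to 958 CPM in the peripheral controls and 573 to 1953 CPM in the central controls, so GFP+ RPE lay above the peripheral controls without overlap. Of them *Wfdc1*, *Opcml*, *Pcsk6*, *Zic2*, *Otx1*, *Msx1* and *Best2* were at or under the floor in every group. The 11 Mueller glia markers, which include *Rlbp1* and *Car14* of the RPE, summed to 6937 to 13582 CPM, and *Aqp4*, *Gfap* and *Abca8a* were at or under the floor in every group. The part of these lists in the differences below was not tested. Mitochondrial genes took 7.95% ± 5.70 of counts in GFP+ RPE (SD, n = 6), 19.7% ± 6.98 in the peripheral controls (SD, n = 5) and 29.1% ± 12.2 in the central controls (SD, n = 6). The share was lower in GFP+ RPE than in the central controls (exact permutation test, two-sided, p = 0.00433) and the peripheral controls (p = 0.0130, same exact test), and it reached 47.3% in the central library of mouse 5, where 5392 genes had at least 10 counts, fewer than in any other library. Mitochondrial share therefore moved with the groups, and its part in the differences below was not tested.

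*Kcnj13* encodes the apical inwardly rectifying potassium channel of the RPE, which recycles potassium taken up by the sodium pump. In GFP+ RPE it lay between 1416 and 2005 CPM with a median of 1620 CPM. The peripheral controls stood at 2154 CPM in mouse 1, 1728 in mouse 2, 2766 in mouse 4, 1343 in mouse 5 and 4127 in mouse 7. In the central controls it ran from 797 CPM in mouse 5 to 4615 CPM in mouse 4, with a median of 2560 CPM. The 6 GFP+ libraries thus sat close together inside the wider ranges of both control groups. On the log2 scale the SD was 0.18 in GFP+ RPE, 0.62 in the peripheral controls and 0.96 in the central controls, without a test of that difference.

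The mean of *Kcnj13* was 1648 ± 215 CPM in GFP+ RPE (SD, n = 6), 2424 ± 1089 CPM in the peripheral controls (SD, n = 5) and 2679 ± 1481 CPM in the central controls (SD, n = 6). By edgeR's quasi-likelihood test over all genes the log2 fold change of GFP+ RPE against the central controls was -0.72 ± 0.30 (SE), with an unadjusted p of 0.0297 and a Benjamini-Hochberg adjusted p of 0.712. Against the peripheral controls it was -0.52 ± 0.24 (SE), with an adjusted p of 0.894 in the same edgeR test. Within mice GFP+ RPE was lower than the central controls in 4 of 5 and lower than the peripheral controls in 4 of 5, and mouse 5 went the other way in both. In mouse 1 it was lower than the central controls by 1416 against 1428 CPM only. The exact permutation test over libraries of the mean log2(CPM + 1) gave a difference of -0.48 from the central controls (p = 0.255), which became -0.78 (p = 0.0216, exact) without the central library of mouse 5 and -0.28 (p = 0.491, exact) without that of mouse 4. With CPM of the total count and no TMM the direction turned, to 0.015 (p = 0.989, exact), where the median of all tested genes stood at 0.84. Likewise the difference from the peripheral controls was -0.46 (p = 0.119, exact), -0.64 (p = 0.0143, exact) without the peripheral library of mouse 5 and -0.24 (p = 0.276, exact) without that of mouse 7. In the edgeR fit with mice as a replicate block the log2 fold change was -0.38 (unadjusted p = 0.236) against the central and -0.40 (unadjusted p = 0.160) against the peripheral controls. Without that block the unadjusted edgeR p against the central controls rose to 0.0930 without the central library of mouse 4 and to 0.0790 without that of mouse 6. No difference of *Kcnj13* passed the adjusted limit.

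*Slc12a2* encodes the apical sodium-potassium-chloride cotransporter, which brings chloride into the cell, and *Atp1b1* the beta subunit of the sodium pump. *Slc12a2* lay between 128 and 377 CPM in GFP+ RPE, with a median of 178 CPM. In the peripheral controls it spanned 108 to 252 CPM. In the central controls 5 libraries lay between 178 and 271 CPM, while that of mouse 5 had 59 counts, or 10.9 CPM. The groups overlapped across their ranges. Its log2 fold change of GFP+ RPE against the central controls was 0.20 ± 0.48 (SE), with a 95% interval of -0.87 to 1.26, and this turned to -0.055 without the central library of mouse 5 and to -0.048 without the GFP+ library of mouse 2.

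*Atp1b1* lay between 390 and 724 CPM in GFP+ RPE and between 507 and 711 CPM in the peripheral controls. In the central controls it spread from 104 CPM in mouse 7 to 844 CPM in mouse 4. The lowest and the highest *Atp1b1* value of all 17 libraries were thus both central. The means were 553 ± 138, 577 ± 83.3 and 485 ± 280 CPM (SD, n = 6, 5 and 6). The log2 fold change of GFP+ RPE against the central controls was 0.16 ± 0.36 (SE), with a 95% interval of -0.65 to 0.96, and it was -0.059 without the central library of mouse 7.

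**Figure D1:**
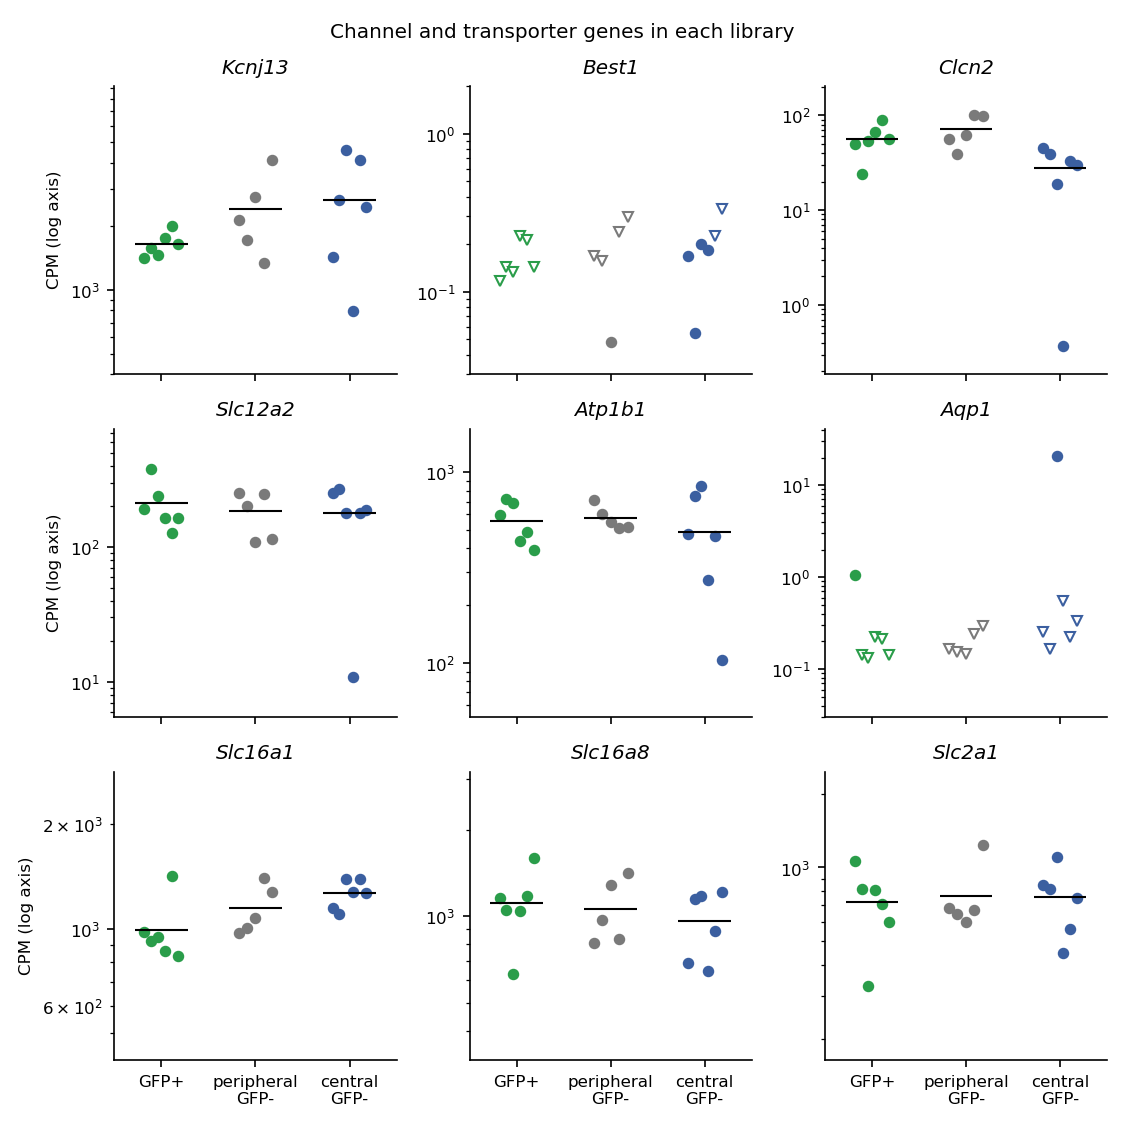
CPM of the 9 genes in each library, on log axes. Each filled point is a library, bars are group means where every library had a count, and open triangles mark libraries with 0 counts at the CPM that 3 counts would give. The 6 GFP+ points of *Kcnj13* lie between 1416 and 2005 CPM, *Best1* points stand for 1 or 2 counts each, and the single low central point of *Clcn2* is 2 counts in mouse 5.

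Of the chloride channels, *Best1* encodes bestrophin-1, the calcium-activated basolateral channel mutated in Best vitelliform dystrophy, and *Clcn2* a hyperpolarisation-activated chloride channel. *Best1* was at or under the floor in all 17 libraries. It had 7 counts in all: 0 in each GFP+ library, 1 in the peripheral control library of mouse 4, and 6 in the central libraries, with 2 in mice 1 and 4 and 1 in mice 2 and 5. No fold or direction can be read from these counts. The study counts *BEST1* among the known markers of mature RPE in human cells, and the reason for the few counts here was not tested. *Best1* (chr19:9985174-10001633, minus strand, GRCm38 with GENCODE M21) overlaps no other annotated gene.

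*Clcn2* (chr16:20702964-20717746, minus strand) lay between 24.0 and 88.7 CPM in GFP+ RPE, with a median of 54.8 CPM. The peripheral controls stood at 56.2 CPM in mouse 1, 39.2 in mouse 2, 61.7 in mouse 4, 102 in mouse 5 and 98.9 in mouse 7. In the central controls it lay between 0.370 and 44.9 CPM, with a median of 31.5 CPM. The lowest values were thus central, although the ranges overlapped those of GFP+ RPE and of the peripheral controls. The means were 56.6 ± 21.2 CPM in GFP+ RPE (SD, n = 6), 71.6 ± 27.6 CPM in the peripheral controls (SD, n = 5) and 27.7 ± 16.0 CPM in the central controls (SD, n = 6).

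*Clcn2* was higher in the peripheral than in the central controls in 5 of 5 mice, although in mouse 2 by 39.2 against 38.9 CPM only, and GFP+ RPE was higher than the central controls in 4 of 5. The difference in mean log2(CPM + 1) between peripheral and central controls was 1.82 (exact permutation test, two-sided, p = 0.0152), and 1.05 (p = 0.0159, exact) without the central library of mouse 5. The p rose to 0.0619 without the peripheral library of mouse 4 and to 0.0714 without that of mouse 5 or of mouse 7, in the same exact test. Between GFP+ RPE and the central controls it was 1.47 (p = 0.0346, exact). This was 0.71 (p = 0.0693, exact) without the central library of mouse 5, and the exact p was between 0.0714 and 0.0974 without the GFP+ library of mouse 1, 3, 4, 5 or 7. On the same log2 scale the median difference of all tested genes was itself 0.41 for the peripheral controls and 0.49 for GFP+ RPE against the central controls. The edgeR quasi-likelihood test over all genes called neither difference of *Clcn2*. Its log2 fold change was 1.33 ± 0.77 (SE, unadjusted p = 0.101, edgeR) for the peripheral controls and 0.98 ± 0.71 (SE, unadjusted p = 0.189, edgeR) for GFP+ RPE against the central controls, both with a Benjamini-Hochberg adjusted p of 1.000. Among the libraries of mice 1 to 3, whose animal numbers form a run of their own, the group means of *Clcn2* were 42.5, 47.7 and 41.9 CPM for GFP+ RPE, peripheral and central controls, against 70.7, 87.5 and 20.6 CPM among those of mice 4 to 7. *Clcn2* overlaps *Fam131a* and *Polr2h* on the other strand, and the use of strand in counting is not given in the sources used here.

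*Aqp1*, the water channel described on the apical membrane of the RPE, was at 0 counts in 15 of 17 libraries. It had 27 counts (1.05 CPM) in the GFP+ library of mouse 1 and 206 counts (20.5 CPM) in the central library of mouse 4. All of its signal thus came from 1 library in each of these groups. The central library of mouse 4 also had the highest sum of red blood cell markers, 232 CPM against 29.5 to 167 CPM elsewhere. The GFP+ library of mouse 1 had the highest sum of melanocyte markers, 905 CPM. Its choroid stroma markers summed to 539 CPM, close to the 538 CPM of the GFP+ library of mouse 2, where *Aqp1* had 0 counts. *Aqp1* is known from red blood cells and from several stromal and endothelial cells, and the part of such cells in these counts was not tested. Neither *Aqp1* nor *Best1* passed edgeR's filter on low counts in any comparison, so 7 of 9 members were tested.

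*Slc16a1* encodes the widely expressed proton-linked monocarboxylate transporter of the apical membrane, and *Slc16a8* its basolateral counterpart, nearly restricted to RPE and choroid plexus. *Slc16a1* lay between 836 and 1421 CPM in GFP+ RPE, with a median of 934 CPM. The peripheral controls stood at 970 CPM in mouse 1, 1007 in mouse 2, 1073 in mouse 4, 1403 in mouse 5 and 1274 in mouse 7. In the central controls it lay between 1103 and 1394 CPM, with a median of 1272 CPM. In GFP+ RPE 5 of the 6 libraries lay below every central library, and that of mouse 5 lay above them all.

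The means of *Slc16a1* were 994 ± 215, 1145 ± 186 and 1264 ± 121 CPM in GFP+ RPE, peripheral controls and central controls (SD, n = 6, 5 and 6). The edgeR quasi-likelihood test gave a log2 fold change of GFP+ RPE against the central controls of -0.42 ± 0.19 (SE), with an unadjusted p of 0.0439 and a Benjamini-Hochberg adjusted p of 0.814. The difference in mean log2(CPM + 1) was -0.36 (exact permutation test, two-sided, p = 0.0216), and GFP+ RPE was lower in 4 of 5 mice. Against the peripheral controls it was -0.21 (p = 0.193, exact), and -0.32 (p = 0.0159, exact) without the GFP+ library of mouse 5. The direction depends on the scaling: with CPM of the total count and no TMM, *Slc16a1* was 0.13 higher in GFP+ RPE than in the central controls (p = 0.494, exact). That change of scaling moved the median difference of all tested genes up by 0.36, from 0.49 to 0.84, and *Slc16a1* stood 0.71 below this median on the log2 scale. Its log2(CPM + 1) rose with the mitochondrial share of the library over the 17 libraries (Pearson's r = 0.735, and 0.535 with group means removed, points that share TMM scaling and depth). That share also differed between the groups, and its part in the result was not tested.

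*Slc16a8* (chr15:79251014-79254761, minus strand) lay between 632 and 1594 CPM in GFP+ RPE and between 643 and 1216 CPM in the central controls, with medians of 1104 and 1017 CPM. In the peripheral controls it spanned 808 to 1420 CPM. The 3 groups overlapped over most of their range. The log2 fold change of GFP+ RPE against the central controls was 0.15 ± 0.24 (SE), with a 95% interval of -0.37 to 0.68. Over the 17 libraries the log2 levels of *Slc16a1* and *Slc16a8* had a Pearson's r of -0.083, given as a description. *Slc16a8* overlaps *Gm49486* on the other strand.

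*Slc2a1* encodes the main facilitative glucose transporter of the blood-retinal barrier. It lay between 328 and 1059 CPM in GFP+ RPE, with a median of 761 CPM, and between 448 and 1107 CPM in the central controls, with a median of 784 CPM. The peripheral controls stood at 683 CPM in mouse 1, 645 in mouse 2, 600 in mouse 4, 674 in mouse 5 and 1230 in mouse 7. The means of *Slc2a1*, 721 ± 245, 766 ± 261 and 755 ± 232 CPM (SD, n = 6, 5 and 6), were closer than the SD of any group. The 95% interval of the log2 fold change was -0.73 to 0.49 for GFP+ RPE against the central controls, -0.67 to 0.56 against the peripheral controls and -0.65 to 0.59 between the control groups. These intervals leave room for changes of that size in either direction.

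**Figure D2:**
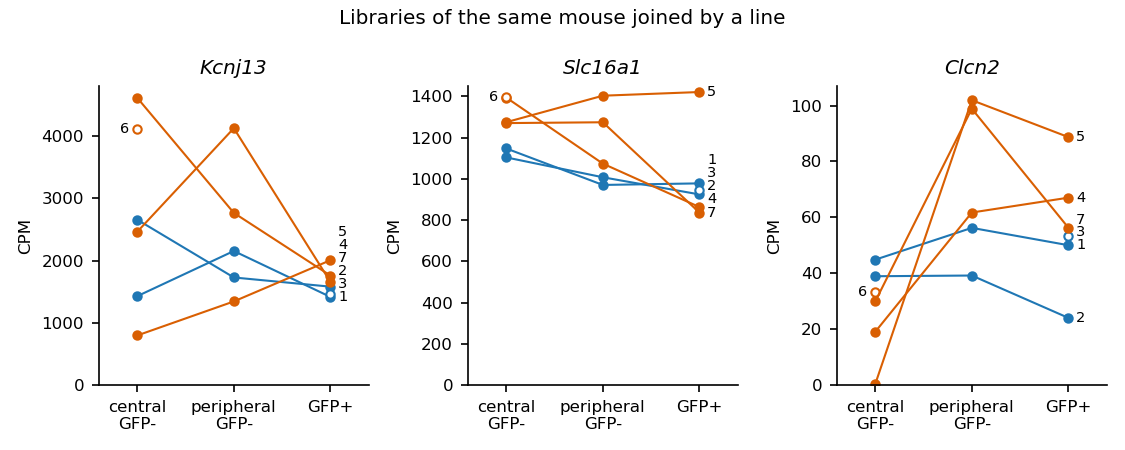
CPM of *Kcnj13*, *Slc16a1* and *Clcn2* in the libraries of each mouse, on linear axes from 0. Lines join the 3 libraries of 1 mouse, numbers name the mouse, blue marks mice 1 to 3 and orange mice 4 to 7, and open points are mice without all 3 groups. *Clcn2* is higher in the peripheral than in the central controls in 5 of 5 mice.

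Across all comparisons no member was called, a call needing an adjusted p under 0.01 with a log2 fold change beyond 1 in size. For GFP+ RPE against the central controls edgeR called 0 of 7 tested members, where 0.0431% of 9286 genes were called (4 genes, 202 by DESeq2 and 56 in a fit with mice as a replicate block). DESeq2 and the blocked fit called 0 members too. At an unadjusted p under 0.05, 2 of 7 members, *Kcnj13* and *Slc16a1*, were lower, where 3.66% of genes were. This number was 0 by DESeq2 and with the replicate block. It was 1 in a fit that holds both runs of mice apart or without libraries over 30% mitochondrial. In the fit without the filter *Kcnj13* was past this limit but *Slc16a1* was not, at a log2 fold change of -0.29. Still 2 members were past it there, and the other can only be *Best1* or *Aqp1*, which had too few counts for the main test. At that limit 0 of 7 were higher in the main test, where 2.14% of genes were. The ranges of 0 of 7 did not overlap, where 1.13% of genes did not.

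For GFP+ RPE against the peripheral controls edgeR called 0 of 7 members, where 0.0396% of 10102 genes were called (4 genes, 67 by DESeq2 and 0 with the replicate block). At an unadjusted p under 0.05, 1 of 7, *Kcnj13*, was lower, where 2.83% of genes were, and 0 of 7 were higher, where 2.75% were. The 1 became 0 with the replicate block, with all 3 groups in the fit and with the runs held apart. Without the filter 2 members were past this limit. The second can only be *Best1* or *Aqp1*, which had too few counts for the main test. No tested member but *Kcnj13* passed this limit under any alternative. The ranges of 0 of 7 members did not overlap, where those of 1.29% of genes did not. Between the peripheral and the central controls edgeR called 0 of 7 members, where 0% of 9535 genes were called (29 by DESeq2). At an unadjusted p under 0.05, 0 of 7 were lower, where 1.67% of genes were, and 0 of 7 were higher, where 1.03% were. The ranges of 0 of 7 members did not overlap, where those of 0.755% of genes did not. The exact permutation tests numbered 21 and were not adjusted, 3 of them had a p under 0.05, and the smallest p they could give was 0.00216. The 3 were *Clcn2* in both comparisons with the central controls, which share the central libraries, and *Slc16a1* in GFP+ RPE against the central controls. The share of all genes under that limit in the exact test is not given here, so the 3 cannot be set against it.

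**Figure D3:**
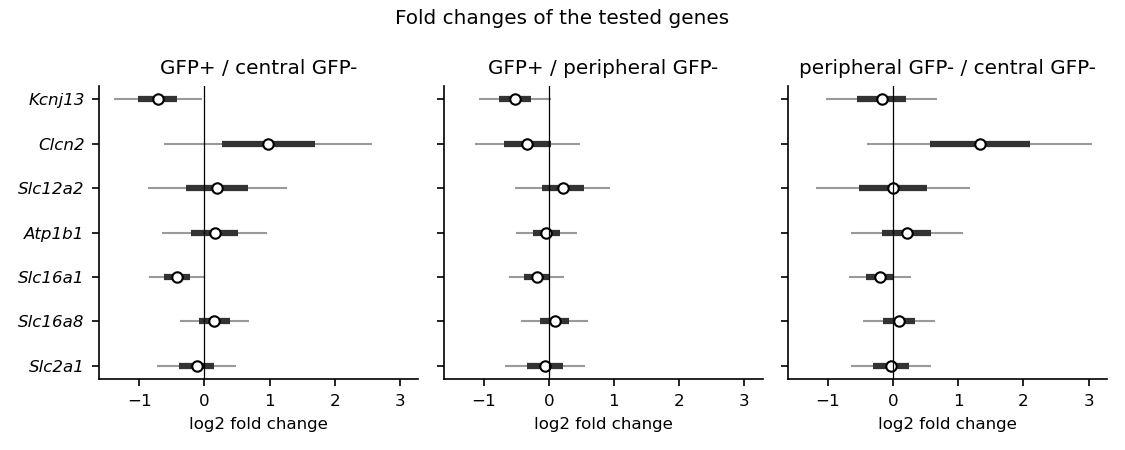
Log2 fold changes of the 7 tested genes in the 3 comparisons by edgeR. Points are estimates, thick bars 1 SE to either side and thin bars 95% intervals. *Clcn2* has the widest bars against the central controls, 0.98 ± 0.71 and 1.33 ± 0.77 (SE), and *Kcnj13* against the central controls, at -0.72, has an interval from -1.39 to -0.043.

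Levels of different genes were compared per kilobase of exon (merged exons, GENCODE M21). Averaged over the 17 libraries, *Kcnj13* stood at 1764 CPM per kilobase, *Slc16a8* at 458, *Slc16a1* at 256, *Slc2a1* at 213 and *Atp1b1* at 174, all in CPM per kilobase. *Slc12a2* followed at 17.6 and *Clcn2* at 8.44 CPM per kilobase, with *Aqp1* at 0.484 and *Best1* at 0.0150. The apical potassium channel was thus the most abundant transcript of the set per length, and *Clcn2* the least abundant of the 7 tested members. *Best1* and *Aqp1* had too few counts to be ranked. *Kcnj13* was above *Slc16a8* in 17 of 17 libraries, *Slc16a8* above *Slc16a1* in 16 of 17, and *Atp1b1* above *Slc12a2* in 17 of 17. *Slc16a1* was above *Slc2a1* in 12 of 17 and *Slc2a1* above *Atp1b1* in 11 of 17, with mean log2 ratios of 0.31 ± 0.50 and 0.34 ± 0.78 (SD). Both mean ratios were thus smaller than the spread of the ratio over single libraries, and the order of these neighbours was not tested. *Slc12a2* was above *Clcn2* in 14 of 17, by a mean log2 ratio of 1.02 ± 0.88 (SD).

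The order of the 7 tested members was the same in each of the 3 groups and with the length of the longest transcript. The value of *Kcnj13* depends on its gene model, 1270 bases of exon in GENCODE M21. RefSeq places its 3′ end 1786 bases further on, and with those bases counted as exon *Kcnj13* would stand at 733 CPM per kilobase and above *Slc16a8* in 14 of 17 libraries. *Kcnj13* overlaps *Gigyf2* on the other strand.

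**Figure D4:**
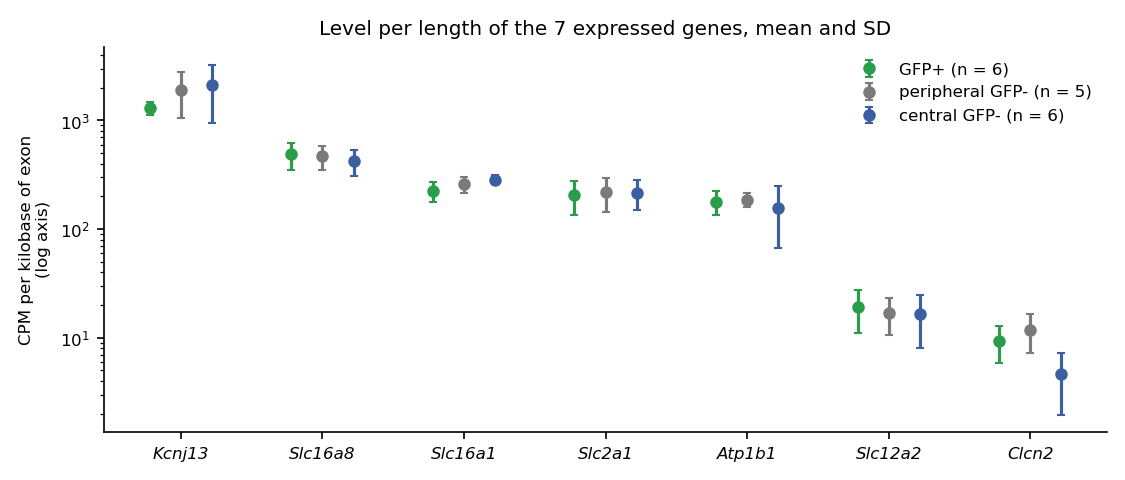
Mean CPM per kilobase of exon of the 7 tested genes, on a log axis. *Clcn2* was under the floor, at 2 counts, in the central library of mouse 5. Points are group means and bars 1 SD. The order from *Kcnj13* down to *Clcn2* is the same in the 3 groups.

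The members did not vary as one block across libraries. Of their 21 pairs, *Clcn2* and *Slc12a2* had the highest Pearson's r of log2(CPM + 1), 0.713 over 17 libraries, but it was -0.444 without the central library of mouse 5, in which both were low. *Slc16a8* and *Slc2a1* had an r of 0.561, and 0.479 without that library. *Kcnj13* and *Slc16a8* had an r of 0.519, and 0.384 without it. Among 10660 genes the closest to *Kcnj13* was *Rdh5*, an enzyme of the visual cycle in RPE, with an r of 0.860, and 0.864 without that library. The closest to *Clcn2* was *Tmem229b* (r = 0.964, and 0.883 without that library), to *Slc12a2* *Timm10b* (0.941, and 0.616) and to *Atp1b1* *Trappc2l* (0.931, and 0.942). The closest to *Slc16a1* was *Sema3c* (0.777, and 0.777), to *Slc16a8* *Tbc1d17* (0.819, and 0.777) and to *Slc2a1* *Gars* (0.831, and 0.810). Without that library *Vmn1r43* (0.812) was closer to *Slc16a1* than *Sema3c* was, and *Necap2* (0.818) closer to *Slc2a1* than *Gars*. All of these points share library depth and scaling, and the correlations are descriptions. *Slc12a2*, *Clcn2* and *Atp1b1* were lower where the mitochondrial share was higher, with an r of -0.615, -0.558 and -0.548 over the 17 libraries, and of -0.674, -0.438 and -0.566 with group means removed. For *Kcnj13* the r was 0.0082, and -0.362 with group means removed.

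The wider families of channels and transporters held 186 genes in 11 lists, of which 77, 82 and 83 passed the filter in the comparisons of GFP+ RPE with the central controls, of GFP+ RPE with the peripheral controls and of both control groups. No gene of any list was called by edgeR in any of the 3 comparisons. The lists include all members of the set. At an unadjusted p under 0.05, 4 list genes were higher and 4 lower in GFP+ RPE than in the central controls, or 10.4% of those tested against 5.80% of all genes. The members *Kcnj13* and *Slc16a1* were among the 4 lower, so this share partly repeats the result of the members. The shares were 4.88% against 5.58% for GFP+ RPE with the peripheral controls and 2.41% against 2.70% for both control groups. The median log2 fold change of the tested list genes was 0.15, -0.036 and 0.16 in the 3 comparisons, and that of all genes 0.00067, 0.013 and 0.0091.

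Of the sodium pump subunits, 5 of 13 were tested, and *Atp1b1* was the most abundant of them per length. Among cation chloride cotransporters (5 of 9 tested) *Slc12a2* was the most abundant, and the lowest p was that of the potassium-chloride cotransporter *Slc12a4*, 0.388 against the central and 0.0622 against the peripheral controls, both unadjusted by edgeR.

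Of the inward rectifiers (2 of 15 tested) only *Kcnj8* passed the filter beside *Kcnj13*, at 4.57 CPM per kilobase. Of the other potassium channels 1 of 15 was tested. Of the aquaporins (1 of 11 tested against the central controls) *Aqp11*, an intracellular water channel, stood at 1.17 CPM per kilobase. *Kcnj13* thus stood far above *Kcnj8*.

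Among chloride channels (14 of 25 tested) *Lrrc8a*, the obligatory subunit of the volume-regulated anion channel, was the most abundant per length, at 160 CPM per kilobase, and also had the lowest p. It was at 240 ± 135 CPM in GFP+ RPE (SD, n = 6), 510 ± 227 CPM in the peripheral controls (SD, n = 5) and 1287 ± 1364 CPM in the central controls (SD, n = 6). The central values spread from 274 to 3932 CPM and overlapped the GFP+ range of 92.0 to 431 CPM. Its log2 fold change of GFP+ RPE against the central controls was -2.61 ± 0.60 (SE), with a Benjamini-Hochberg adjusted p of 0.0729 by edgeR, and 0.00136 in the fit with mice as a replicate block, which is a call. Over 21 alternatives its adjusted p ran from 0.00136 to 0.682 and its log2 fold change from -2.85 to -0.997. The value of -0.997 is that without libraries over 30% mitochondrial, and without the central library of mouse 5 alone it was -1.72 with an adjusted p of 0.202 by edgeR. *Lrrc8a* was at 3932, 1524 and 864 CPM in the central libraries of mice 5, 7 and 4, whose mitochondrial shares of 47.3%, 37.0% and 32.4% were the highest of all, and at 274 to 597 CPM in the other central libraries. The part of that share in the difference was not tested.

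*Slc4a5*, an electrogenic sodium bicarbonate cotransporter, had the lowest p of the bicarbonate and proton handling list (10 of 21 tested). It was at 402 to 895 CPM in GFP+ RPE, 393 to 804 CPM in the peripheral controls and 195 to 384 CPM in the central controls. The central range overlapped neither that of GFP+ RPE nor that of the peripheral controls. The means were 641 ± 197, 602 ± 167 and 297 ± 77.6 CPM (SD, n = 6, 5 and 6). The log2 fold change against the central controls was 1.03 ± 0.26 (SE) in GFP+ RPE, with an adjusted p of 0.0970 by edgeR with Benjamini-Hochberg adjustment, and 0.95 ± 0.28 (SE) in the peripheral controls, with an adjusted p of 1.000. These comparisons share their central libraries, and neither reached a call. The most abundant gene of that list per length was *Car14*, a membrane-bound carbonic anhydrase, at 680 CPM per kilobase.

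In the monocarboxylate list (8 of 18 tested) *Bsg*, the chaperone that carries these transporters to the membrane, was the most abundant, at 2686 CPM per kilobase. *Bsg* was at 5819 ± 412 CPM in GFP+ RPE (SD, n = 6), 4522 ± 1903 CPM in the peripheral controls (SD, n = 5) and 4219 ± 1917 CPM in the central controls (SD, n = 6). Among glucose transporters (3 of 12 tested) *Slc2a1* was the most abundant and *Slc2a12* followed at 14.5 CPM per kilobase. Among amino acid and taurine transporters (16 of 26 tested) *Slc3a2*, the heavy chain of several amino acid exchangers, was at 420 ± 114 CPM in GFP+ RPE and 222 ± 104 CPM in the central controls (SD, n = 6 and 6). Its log2 fold change of 0.86 ± 0.34 (SE) had an adjusted p of 0.578 by edgeR with Benjamini-Hochberg adjustment. The most abundant of that list was *Slc6a20a*, a proline transporter, at 189 CPM per kilobase.

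In the calcium and TRP channel list (12 of 21 tested) *Trpm3* was the most abundant, at 70.0 CPM per kilobase, and *Trpm1*, a cation channel of melanocytes and bipolar cells, had the lowest p. *Trpm1* was at 7.32 to 47.2 CPM in GFP+ RPE and at 0 to 4 counts in the central libraries, or at most 0.554 CPM, above the floor only in that of mouse 1. In the peripheral controls it ran from 0.0794 to 33.3 CPM. All GFP+ libraries were thus above all central ones, while the peripheral control range overlapped both. The adjusted p against the central controls was 0.0733 by edgeR and 4.64e-10 by DESeq2, each with Benjamini-Hochberg adjustment. The 7 melanocyte markers summed to 238 to 905 CPM in GFP+ RPE, 124 to 225 CPM in the peripheral and 79.4 to 241 CPM in the central controls, and their part in the *Trpm1* values was not tested.

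**Figure D5:**
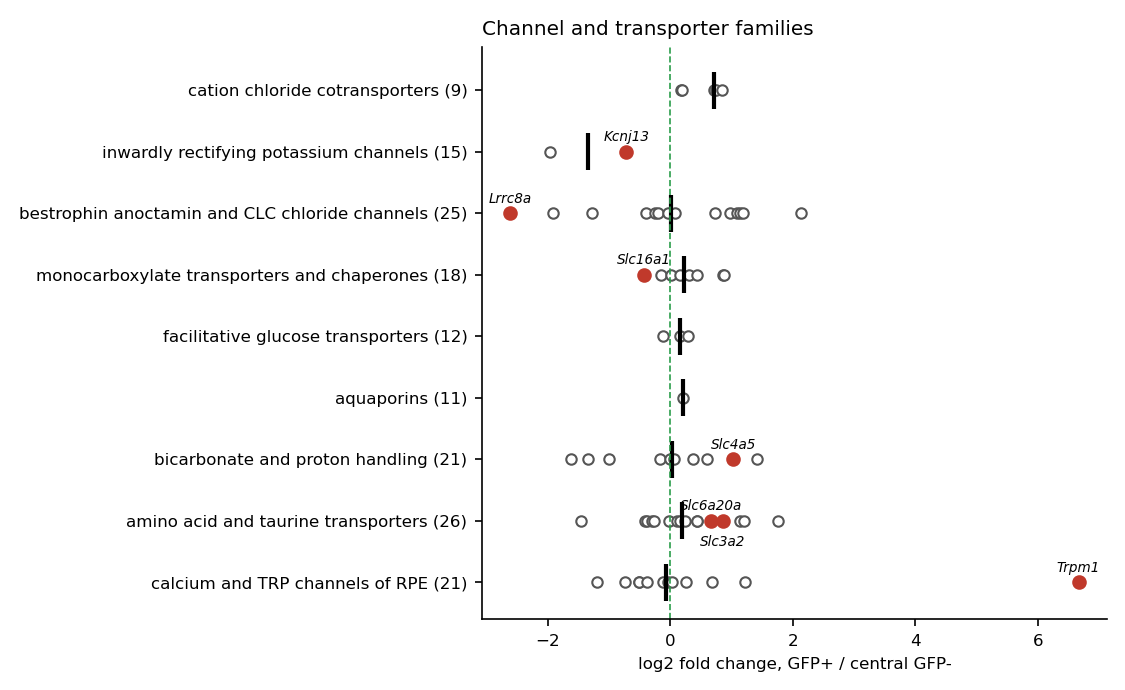
Log2 fold changes of GFP+ RPE against the central controls for the tested genes of 9 of the 11 lists, with the number of genes in each list in parentheses. Points are genes, filled and named where the unadjusted edgeR p was under 0.05, black ticks are list medians and the dashed line is the median of all genes, 0.00067. *Lrrc8a* is the lowest named gene, at -2.61, and *Trpm1* is the highest, at a fitted 6.66 that depends on the prior count since its central libraries held 0 to 4 counts.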

How the data were processed

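The authors deposited estimated counts per gene symbol, rounded to whole numbers and not normalized, for 17 SMART-Seq libraries. The submitters' processing notes name fastp, Salmon and GRCm38.p6, with no versions or order. The annotation and the use of strand are not given in the sources used here. No molecular identifiers are described, so PCR copies were counted. Groups and mice came from the sample labels.

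The members and all lists were chosen with earlier results of these data known. Comparisons used edgeR 4.0.16 in R 4.3.3 on the libraries of the compared groups (default low-count filter, TMM, quasi-likelihood test), over all genes with Benjamini-Hochberg adjustment. A call needed an adjusted p under 0.01 with a log2 fold change beyond 1 in size. DESeq2 1.42.0, the tool the methods name, was an alternative. Standard errors are the absolute log2 fold change over the square root of F. The 95% intervals are these errors times a quantile of Student's t, with degrees of freedom from the number of compared libraries alone. The edgeR test has more degrees of freedom, so an interval can include no change where its unadjusted p is under 0.05. Single members were also compared by two-sided exact permutation tests of mean log2(CPM + 1), pseudocount 1, except *Best1* and *Aqp1*. CPM used TMM over all 17 libraries. Named genes of each list were those with the lowest p in a comparison and the highest level per kilobase, and for each member the gene with the highest correlation. Some genes that this rule chose are not reported here. Positions and lengths are from GENCODE M21 on GRCm38, promoters from RefSeq (GRCm38.p6). Figures and other values were computed in Python 3.11.15. The fits were tested on simulated data.

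Libraries of 1 mouse share an animal number, so mice pair the groups. Over 15 pairs the correlation of deviations from group means was -0.0195 to 0.0922, with 0 above 0.1. The libraries of a group come from different mice. No 2 libraries were copies (highest correlation 0.924 among 136 pairs). Alternatives were DESeq2, other size factors, another filter (10 counts in 5 libraries) or none, a joint fit of the 3 groups, a replicate block for mice, a covariate for runs of animal numbers, mitochondrial genes removed, other pseudocounts (0.1 and 10), CPM without TMM, other limits for calls and each library left out. Leaving out libraries over 30% mitochondrial and the RefSeq 3′ end of *Kcnj13* were added after seeing the data.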

Additional observations from a re-analysis of the deposited data

Results flagged for a closer look

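Of 25 sets of libraries of 1 gene in 1 group that could be checked, 6 held a library set apart from the others by Dixon's ratio at its 95% limit, where chance gives about 1 in 20. That rate does not apply to the *Best1* and *Aqp1* sets named below. All other libraries of those groups were at 0, so any count gives the highest ratio, 1.0. The 6 therefore cannot be set against that rate. *Best1* was at 0.0481 CPM, which is 1 count, in the peripheral control library of mouse 4 and at 0 in the other 4. *Aqp1* was at 1.05 CPM in the GFP+ library of mouse 1 and at 20.5 CPM in the central library of mouse 4, with 0 counts in the other libraries of both groups. *Slc12a2* was at 10.9 CPM in the central library of mouse 5, with the next at 178 CPM. That library had the highest mitochondrial share, 47.3%, and its part in the value was not tested. *Slc16a1* was at 1421 CPM in the GFP+ library of mouse 5, with the next at 978 CPM, and this library had the highest mitochondrial share of its group, 17.2%. *Slc2a1* was at 1230 CPM in the peripheral control library of mouse 7, with the next at 683 CPM.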

How the results depend on the processing

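No member was called under any alternative. Over 427 alternative fold changes of the 7 tested members the lowest adjusted p was 0.206 (*Kcnj13* in GFP+ RPE against the central controls, without the filter), and 34 had the other direction than reported. The cause of the reversals was not tested.

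Counts of called genes moved. For GFP+ RPE against the central controls, 4 became 202 with DESeq2, 56 with mice as a replicate block, 2 with the filter of 10 counts in 5 libraries, 1 with the run as a covariate and 8 at an adjusted p under 0.05. For GFP+ RPE against the peripheral controls, 4 became 67 with DESeq2, 1 with the run as a covariate, and 0 with the replicate block, with all 3 groups in the fit and without libraries over 30% mitochondrial. Between the control groups 0 became 29 with DESeq2. With 1 library left out these counts lay between 1 and 3, between 0 and 5, and at 0. Members at an exact permutation p under 0.05 numbered 2, 0 and 1, with no share of all genes given beside them. They lay between 1 and 2, 0 and 1, and 0 and 1 with 1 library left out, and the first became 1 without TMM.

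The replicate block turned the log2 fold change of *Slc2a1* in GFP+ RPE against the peripheral controls to 0.13, and between the control groups those of *Kcnj13* to 0.069 and *Slc12a2* to 0.13. Without libraries over 30% mitochondrial those of *Slc12a2* and *Atp1b1* against the central controls became -0.16 and -0.040, and that of *Slc2a1* between the control groups 0.024. Between the control groups *Slc12a2* turned to 0.00015 with DESeq2, 0.056 without the filter and 0.0012 with the run as a covariate, and *Slc2a1* to 0.033 without the filter. Without TMM the differences in mean log2(CPM + 1) turned for *Kcnj13* to 0.015 and for *Slc16a1* to 0.13 in GFP+ RPE against the central controls, and to 0.29 and 0.16 between the control groups. That scaling moved the median difference of all tested genes up by 0.36 and 0.21.

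With 1 library left out, log2 fold changes ran, for GFP+ RPE against the central controls, from -0.055 to 0.37 (*Slc12a2*), -0.059 to 0.35 (*Atp1b1*) and -0.21 to 0.069 (*Slc2a1*). Against the peripheral controls they ran from -0.071 to 0.38 (*Slc12a2*), -0.16 to 0.057 (*Atp1b1*), -0.036 to 0.21 (*Slc16a8*) and -0.19 to 0.16 (*Slc2a1*). Between the control groups they ran from -0.46 to 0.030 (*Kcnj13*), -0.22 to 0.15 (*Slc12a2*), -0.039 to 0.18 (*Slc16a8*) and -0.27 to 0.072 (*Slc2a1*), and the difference in mean log2(CPM + 1) of *Kcnj13* from -0.33 to 0.18.

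Of the wider lists, DESeq2 called *Trpm1* against the central controls, and the replicate block called *Lrrc8a* there. The block changed no call of a member, nor of *Slc4a5*, *Slc3a2* or *Trpm1*, and was not tabulated for the other named genes of these lists. *Best1* held at most 2 counts in a library and *Aqp1* counts in 2 libraries only, and neither was tested. The few cells in a pool limit how far a library stands for its tissue.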
